A study of Mus musculus with 3 samples.

Results

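Transcripts of 32 genes of the unfolded protein response and of protein folding in the endoplasmic reticulum (ER) were followed in differentiating 3T3-L1 cells, an established mouse line of preadipocytes that become fat-storing adipocytes. The genes were taken from a fixed list, and their probes were found by matching the RefSeq accession on the array to a mouse symbol. Of 20144 genes named in this way, 20142 had a value on every array, and the 32 members were among them with 36 probes in total. All 32 were well above background on every array by the scanner software's own mark. The study compared cells 2, 8 and 20 days after adipogenic differentiation, with the aim of measuring expression as adipocytes enlarge. No treatment, genotype or medium distinguishes the groups in the labels beyond the time in culture, and all of them are cells of the same line. Total RNA of each day was hybridised to 1 Agilent 1-colour array, so no day has a replicate, no difference was tested, and each value describes that array. In such bulk RNA, fewer cells of a type and less RNA per cell cannot be told apart.

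Proteins that enter the secretory pathway fold in the ER with the help of chaperones, lectins and disulfide isomerases. When unfolded proteins accumulate, the membrane sensors IRE1 (encoded by Ern1), PERK (Eif2ak3) and ATF6 set off a response that slows translation, raises folding capacity and sends misfolded proteins to the proteasome. IRE1 splices the mRNA of Xbp1, ATF6 is cut to release a transcription factor, and PERK phosphorylates the initiation factor eIF2, which favours translation of ATF4. ATF4 is also used when amino acids run short, since several kinases act on eIF2. Adipocytes secrete large amounts of adiponectin, leptin and other proteins, and XBP1 is known to be needed for adipocyte differentiation.

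From day 2 to day 8, members of the ATF4 arm and the small lumenal proteins Creld2 and Manf were lower, while the major chaperone Hspa5 stayed near its day 2 level. Of the 32 members, 7 were at least 2-fold lower on day 8, namely Ppp1r15a, Atf4, Manf, Creld2, Chac1, Dnajb11 and Sesn2, and 1 was at least 2-fold higher, Edem2. In the 12045 genes with a measured difference, 12.9% were at least 2-fold lower and 13.8% at least 2-fold higher. The members' median difference was -0.16 on the log2 scale, against -0.06 for all genes. From day 8 to day 20, only Atf3 passed 2-fold, in the higher direction, against a background of 3.58% higher and 1.74% lower among 12321 genes, and the members' median was 0.18 against -0.05. Across all 3 days, 13 members were highest on day 2, 7 on day 8 and 12 on day 20 with the default scaling. The same shares were not counted over all genes, so these counts are not read as a trait of the members. They also depend on the scaling: 16 members changed sign from day 8 to day 20 in at least 1 alternative setting.

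Values below are log2 processed intensity minus the 75th percentile of the same array, so a value of 0 lies at that percentile. A difference of 1 is 2-fold. Each difference carries a technical SD, taken from probes that are printed 10 times on each array, which holds the spread between spots and not that between cultures. For the members it lay between 0.059 and 0.157 from day 2 to day 8. Levels of different genes come from different probes and were not compared with each other.

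**Figure D1:**
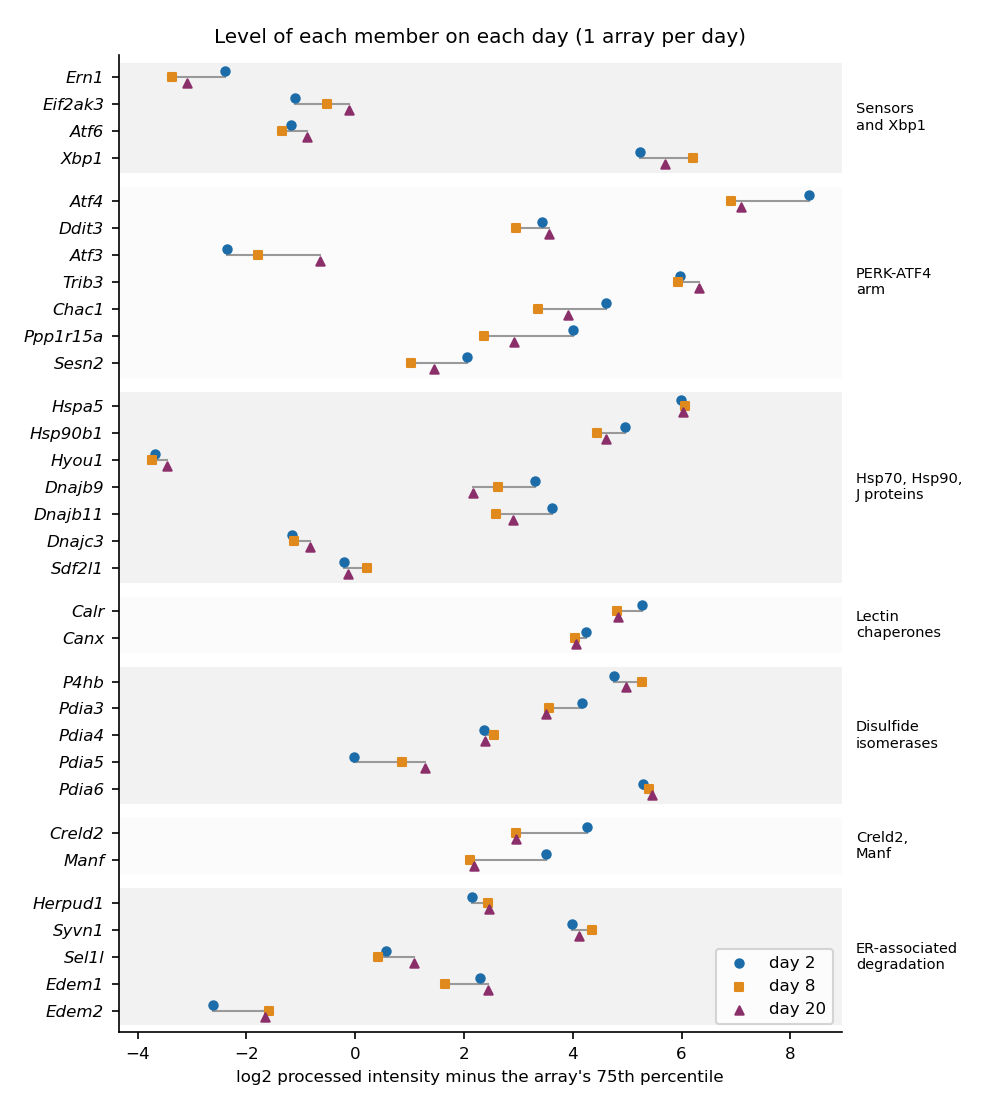
Each row is a member, grouped by role, and the markers give its log2 processed intensity minus the array's 75th percentile on day 2 (circle), day 8 (square) and day 20 (triangle), 1 array per day. The day 2 marker of Atf4, Ppp1r15a, Creld2 and Manf lies to the right of the other days, that of Pdia5, Atf3 and Edem2 to the left, and the 3 markers of Hspa5 nearly coincide.

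The arrays had 55.9%, 56.9% and 55.3% of non-control spots well above background on days 2, 8 and 20, no non-control spot was saturated, and the 3 arrays lay on 1 slide with 1 scan time in the file headers. Adipocyte markers were detected on every day: the software called 11 of 12 on day 2 and all 12 on days 8 and 20. Their detection therefore does not tell the days apart. From day 2 to day 8, 9 of the 11 measured were above 0 (median 0.80) and 2 below, Cebpa (-0.40) and Fabp4 (-0.05). Of the 11, 5 were at least 2-fold higher and 6 under 2-fold. Among all genes 53.6% were below 0 in that step. The largest marker differences were those of Cfd (6.46), adiponectin (Adipoq, 3.83) and the glucose transporter Slc2a4 (3.42). From day 8 to day 20, 5 of 12 were above 0 and 7 below (median -0.12). Leptin (Lep), higher by 1.07 in that step, was the only 1 of them past 2-fold. Cell cycle genes were at least 2-fold lower on day 8 in 12 of 12 cases (median -4.83), led by Rrm2 (-5.66), Aurka (-5.33) and Ccnb1 (-5.23). On day 20 11 of these 12 were above their day 8 level (median 0.87), 3 of them by at least 2-fold, Ccna2 (1.29), Mki67 (1.05) and Top2a (1.03). Of 9 macrophage markers with a probe, 4 were well above background on each day, with Ptprc and Adgre1 not among them. From day 2 to day 8, Cd14 (2.96) and Itgam (0.25) were above 0, and Fcer1g (-0.68) and Csf1r (-0.01) below. From day 8 to day 20, Itgam (-1.13), Fcer1g (-0.65) and Csf1r (-0.53) were below 0, and Cd14 (0.32) above. The macrophage list's summed linear level was 9.15, 11.6 and 6.27 on days 2, 8 and 20, in multiples of the array's 75th percentile. Most of this sum is the signal of Itgam, at 3.05, 3.30 and 2.17 on the log2 scale. Such sums join different probes and do not measure the number of cells of a type. Of 8 endothelial markers, 3, 4 and 4 were above background, with Cdh5 below it on every day (summed level 5.61, 7.26 and 4.69). Of the 3 measured from day 2 to day 8, Egfl7 was higher by 1.63, while Pecam1 (-0.28) and Kdr (-0.12) were below 0. Of 8 muscle markers 3 were above background, and all 3 were at least 2-fold higher on day 8, Acta1 by 3.64, Des by 3.52 and Tnnt2 by 1.08, the last by a further 1.44 on day 20. Myod1 and Myog were below background on every day, and the summed level was 0.168, 1.34 and 1.57. Of 7 preadipocyte and fibroblast markers, 6, 7 and 7 were above background. Pdgfrb was higher (2.53) and Ly6a lower (-1.01) on day 8. Day 20 against day 8 gave 3 higher, Ly6a (2.58), Thy1 (1.81) and Dlk1 (1.47), and 1 lower, Cd34 (-1.17), with a median of 0.83. Whether the change in cell cycling or these other transcripts took part in the differences below was not tested.

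Some members carry known ER stress elements in their promoters. RefSeq promoters (GRCm38.p6, 250 bases before to 50 bases after the annotated start) were matched by symbol for 29 of the 32 members and searched on both strands. The ER stress element ERSE, which reads CCAAT, 9 bases of any kind and CCACG, is bound by ATF6 together with NF-Y. It was found in 8 of the 29 members (27.6%), against 0.137% of 27025 genes with a promoter and 0.119% of 32851 promoters. The element is known from this response and the members were listed for it, so this contrast is no independent result. The 9 matches are shown because the letters recur in chaperone and quality-control genes that differ in their course. Each is printed on the strand of the motif, with the letters that define it in capitals.

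Calr: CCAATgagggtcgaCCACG
Canx: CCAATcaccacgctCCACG
Creld2: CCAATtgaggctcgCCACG
Dnajc3: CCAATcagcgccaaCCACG
Hsp90b1, nearer the start: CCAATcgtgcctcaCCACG
Hsp90b1, farther from it: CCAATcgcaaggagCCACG
Hspa5: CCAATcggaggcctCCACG
Pdia6: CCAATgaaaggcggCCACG
Syvn1: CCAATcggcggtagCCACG

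The matches began between 44 bases (Syvn1) and 212 bases (Hsp90b1) before the annotated start. From day 2 to day 8, these 8 genes spanned -1.30 (Creld2) to 0.37 (Syvn1), with a median of -0.08, and 1 of them passed 2-fold. The related element ERSE-II, which reads ATTGG, 1 base of any kind and CCACG, was found in 2 members and in 0.0444% of all genes. It is shown with 8 flanking bases on either side, and the genes that hold it differed by -1.03 (Dnajb11) and 0.29 (Herpud1).

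Dnajb11, chr16:22857844-22857870, plus strand: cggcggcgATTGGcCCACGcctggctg
Herpud1, chr8:94386369-94386395, plus strand: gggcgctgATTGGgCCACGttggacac

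Targets of ATF4 are known for a C/EBP-ATF response element, or CARE, TGATGNAA. It occurred in 4 of the 29 members, Atf3, Chac1, Herpud1 and Trib3 (13.8%, against 4.51% of all genes). In Atf3, Chac1 and Herpud1 it was the longer-known composite form, TTGCATCA on the other strand, which is a special case of the same letters and was found in 1.03% of all genes. The promoters of Atf4, Ppp1r15a and Sesn2 held neither form in this window. The composite sites are shown with 8 flanking bases.

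Atf3, chr1:191183428-191183451, minus strand: tctcgcacTTGCATCAccaagtcc
Chac1, chr2:119351041-119351064, plus strand: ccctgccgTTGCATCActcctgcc
Herpud1, chr8:94386309-94386332, plus strand: acggcgggTTGCATCAgcccgcac

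Of the UPRE core, TGACGTGG, which XBP1 and ATF6 bind, the 29 member promoters held 0 matches, against 0.714% of all genes. This says only that these letters are not in these windows. A match is a description of sequence and does not show that a factor bound there. The limit given for the share of ERSE holds for ERSE-II and CARE too. To show the wider context, the 250 bases before the annotated start are given for Creld2 and Chac1, which were lower on day 8, for Atf3, which was higher on day 20, and for Hspa5, which differed little and was added for contrast after its values were seen. The strand is that of the gene and the matches are in capitals.

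Creld2, chr15:88819396-88819645, plus strand: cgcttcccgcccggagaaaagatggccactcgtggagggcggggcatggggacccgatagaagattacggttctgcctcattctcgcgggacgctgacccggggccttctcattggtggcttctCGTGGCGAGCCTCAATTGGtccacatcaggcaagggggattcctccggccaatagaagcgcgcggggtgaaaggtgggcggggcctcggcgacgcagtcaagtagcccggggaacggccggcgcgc
Chac1, chr2:119350992-119351241, plus strand: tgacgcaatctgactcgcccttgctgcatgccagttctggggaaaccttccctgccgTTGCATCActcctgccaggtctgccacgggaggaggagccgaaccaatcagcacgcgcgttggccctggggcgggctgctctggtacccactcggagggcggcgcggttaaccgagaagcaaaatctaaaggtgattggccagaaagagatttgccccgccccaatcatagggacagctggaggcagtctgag
Atf3, chr1:191183334-191183583, minus strand: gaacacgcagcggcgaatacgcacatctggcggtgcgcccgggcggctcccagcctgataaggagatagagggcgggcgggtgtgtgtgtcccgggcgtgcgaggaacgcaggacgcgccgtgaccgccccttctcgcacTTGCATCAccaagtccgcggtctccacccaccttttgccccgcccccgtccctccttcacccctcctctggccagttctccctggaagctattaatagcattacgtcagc
Hspa5, chr2:34771840-34772089, plus strand: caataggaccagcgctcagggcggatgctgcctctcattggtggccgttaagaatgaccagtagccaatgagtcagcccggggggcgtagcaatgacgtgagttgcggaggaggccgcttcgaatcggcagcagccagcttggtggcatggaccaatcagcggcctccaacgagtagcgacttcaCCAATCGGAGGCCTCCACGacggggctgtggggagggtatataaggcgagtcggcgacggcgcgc

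Creld2 and Hspa5 thus share the ERSE letters and differ in what was measured, and so do Chac1 and Atf3 with the CARE composite. Among all genes with an ERSE, 18 were measured on days 2 and 8, of which 2 were at least 2-fold higher and 2 lower. Of 265 measured genes with a CARE, 35 (13.2%) were higher and 42 (15.8%) lower. Of the 74 among them with the composite form, 8 were higher and 16 (21.6%) lower, beside 13.8% higher and 12.9% lower among all measured genes. These motif classes overlap with the companion ATF4 targets described below, so their shares are not independent of that list. Of 31 such targets with a promoter, 11 held a CARE and 9 the composite form.

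**Figure D2:**
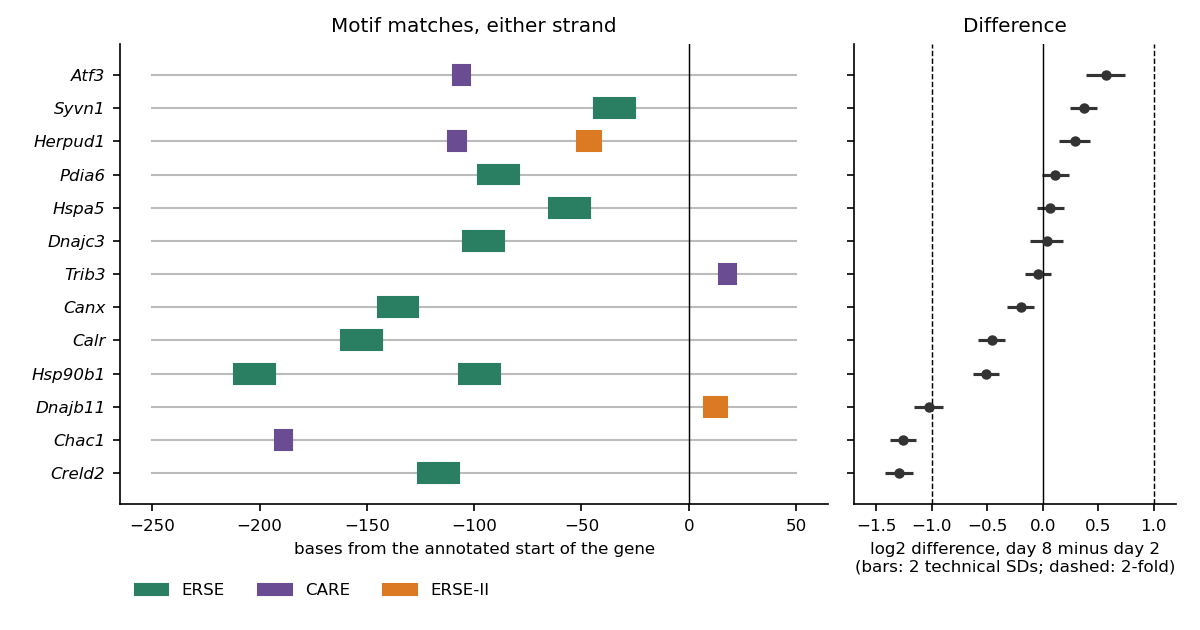
Left, positions of ERSE, ERSE-II and CARE matches in bases from the annotated start for the 13 members with a match, on either strand. Right, the log2 difference from day 2 to day 8 of the same genes with bars of 2 technical SDs: the 8 ERSE genes spread from -1.30 (Creld2) to 0.37 (Syvn1).

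The 3 sensors differed in direction from day 2 to day 8, and all were higher on day 20 than on day 8, by 0.27 (Ern1), 0.40 (Eif2ak3) and 0.47 (Atf6), although Ern1 was at -0.048 with normexp. Ern1, the IRE1 kinase and nuclease, was at -2.40, -3.37 and -3.10 on days 2, 8 and 20, which is 1.96-fold lower on day 8 (-0.97, technical SD 0.123). This probe was dim, with a processed intensity of 126, 61.5 and 108. Over the alternative settings its day 8 difference from day 2 lay between -1.05 and -0.53, past 2-fold with quantile normalization and median scaling. Eif2ak3, encoding PERK, took the opposite course, from -1.10 to -0.51 and -0.11, and was 1.99-fold higher on day 20 than on day 2 (0.99, technical SD 0.0778). Atf6, the membrane-bound transcription factor, was at -1.18, -1.35 and -0.88, its lowest value on day 8.

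Xbp1, the transcription factor gene whose mRNA IRE1 splices, was at 5.23, 6.22 and 5.69. It was 1.98-fold higher on day 8 than on day 2 (0.98, technical SD 0.059), just under 2-fold, and passed 2-fold with quantile normalization (1.11), cyclic loess (1.18) and spike-in scaling (1.01). The day 20 level differed from that of day 8 by -0.52, a value that was 0.14 with spike-in scaling. The place of the probe relative to the segment that IRE1 removes was not examined, and the spliced and unspliced forms were not measured apart.

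Of the 7 members that were lower on day 8, most belong to the ATF4 arm. Of the arm's 7 genes, 4 were at least 2-fold lower on day 8 and 0 higher, with a median of -1.02. Ppp1r15a, which encodes the GADD34 subunit that directs a phosphatase to eIF2, was at 4.01 on day 2, 2.37 on day 8 and 2.92 on day 20. It was 3.12-fold lower on day 8 (-1.64, technical SD 0.0649), lower than the differences of all but 4.87% of genes, and still 2.13-fold lower on day 20 than on day 2.

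Atf4 itself was at 8.34, 6.91 and 7.10, and its other probe at 3.47, 2.01 and 2.60. The differences from day 2 to day 8 were -1.43 (2.69-fold, technical SD 0.059) and -1.46, so the probes gave the same size. For day 20 against day 8 they gave 0.19 and 0.59. The array reads Atf4 mRNA, while the arm is known to be controlled at translation.

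Chac1, a glutathione-degrading enzyme and ATF4 target, was at 4.61, 3.36 and 3.92, 2.39-fold lower on day 8 (-1.26, technical SD 0.06). Sesn2, a stress-induced inhibitor of mTORC1 signalling, was at 2.05, 1.03 and 1.45. Its difference on day 8, -1.02 (technical SD 0.0704), lay within 1 technical SD of the 2-fold limit. For both genes the day 20 level lay between those of days 8 and 2 with the default scaling. Under spike-in scaling Sesn2 was above its day 2 level on day 20, by 0.09.

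The remaining 3 genes of the arm were not at least 2-fold lower on day 8. Trib3, a pseudokinase that dampens ATF4 activity, was at 5.97, 5.93 and 6.31. Ddit3, encoding the pro-apoptotic factor CHOP, was at 3.44, 2.96 and 3.56, with both steps under 2-fold. Atf3, a stress-induced repressor, was at -2.35, -1.78 and -0.64, higher on each later day. It was 2.20-fold higher on day 20 than on day 8 (1.14, technical SD 0.0852) and 3.27-fold higher than on day 2. The signal of Atf3 was modest, with processed intensities of 130, 185 and 594, and the day 20 against day 8 difference was 0.86 with normexp background correction.

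All 7 genes of the arm had a positive difference from day 8 to day 20, between 0.19 (Atf4) and 1.14 (Atf3), with a median of 0.55. Among all genes 44.9% had a positive difference. The 7 were positive in each of the 10 alternative settings of the processing, with medians between 0.51 and 1.21. Of these settings, the series table and the filters on dim probes keep the same signals and could not change a sign. Pooling a gene's probes bears only on Atf4 in this arm. The step from day 8 to day 20 shares the day 8 array with the one before it, so a low day 8 reading would lower the earlier difference and raise the later. In the same step 11 of 12 cell cycle genes were above 0, with a median of 0.87, and their part in the arm's differences was not tested.

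Companion genes known as ATF4 targets were examined beside the members. Of 38 listed, 37 had a probe and 33 were measured on days 2 and 8, and 16 of them (48.5%) were at least 2-fold lower on day 8, 2 were higher and 15 were under 2-fold, with a median of -0.98. The largest measured differences were those of Slc7a5, a transporter of large neutral amino acids, at -3.59 (technical SD 0.0754), Cth, which makes cysteine from cystathionine, at -2.98, and Mthfd2, a mitochondrial folate enzyme, at -2.75. Fgf21 and Slc7a11, with a day 8 signal not well above background, were lower by at least 7.0-fold and 3.60-fold, and are named after their values were seen. On the other side were Vldlr, a lipoprotein receptor, at 1.04 and the translation inhibitor Eif4ebp1 at 1.03.

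By function, 4 of 4 measured amino acid transport genes, 6 of 9 genes of amino acid and one-carbon synthesis and 5 of 11 aminoacyl-tRNA synthetases in that list were at least 2-fold lower, a grouping made after the values were seen. From day 8 to day 20 the list had 2 of 33 higher, Mthfd2 at 1.16 and Slc6a9, a glycine transporter, at 1.02, and 0 lower, with a median of 0.30. Over the 10 alternative settings, between 15 and 18 of the list were at least 2-fold lower on day 8.

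**Figure D3:**
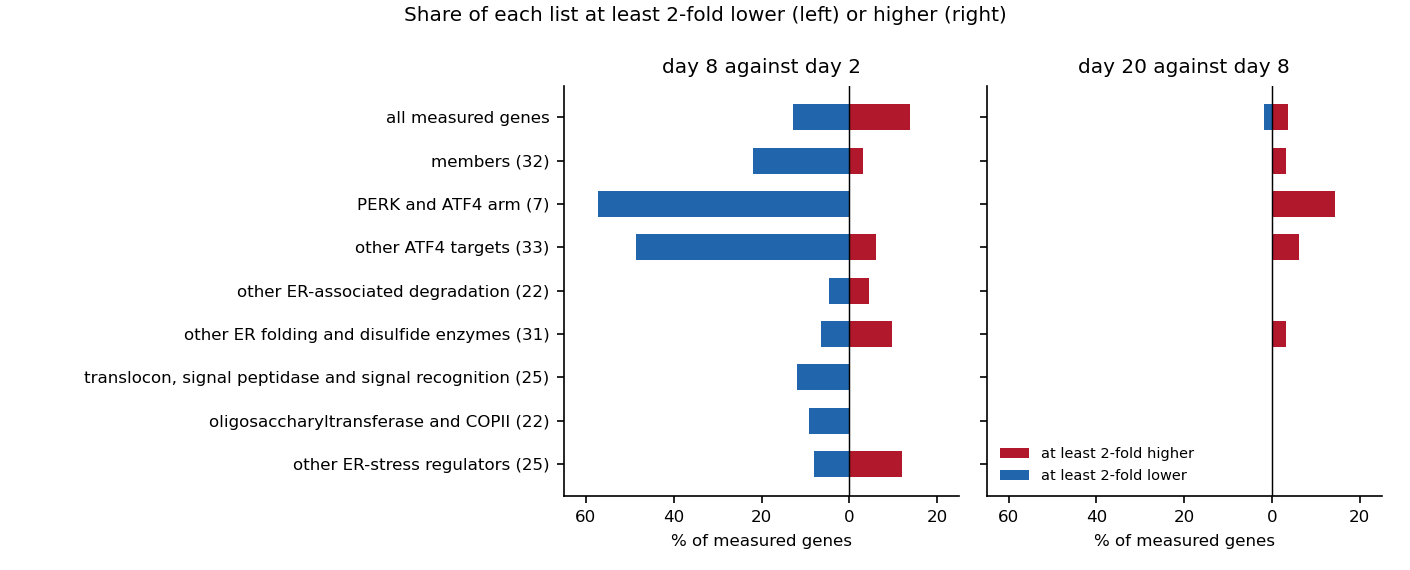
Bars give the percentage of the measured genes of each list (their number in brackets) that were at least 2-fold lower (left) or higher (right) on the later day. Among the lists drawn, the ATF4 arm (4 of 7) and the other ATF4 targets (16 of 33) extend farthest to the left from day 2 to day 8, against 12.9% of all measured genes.

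Among the lumenal chaperones, Hspa5 was nearly level while some of its partners were lower. Hspa5, the ER Hsp70 known as BiP and the standard reporter of this response, was at 5.995, 6.065 and 6.021, a range of 0.07 over the 3 days. Its differences of 0.07 (technical SD 0.059) and -0.04 (technical SD 0.0666) lay within 2 technical SDs of 0, although the day 20 difference from day 8 was 0.62 with spike-in scaling. Hsp90b1, the ER Hsp90 (GRP94), was at 4.96, 4.45 and 4.62, which is 1.43-fold lower on day 8.

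Dnajb11, a J-domain cofactor of BiP, was at 3.62, 2.59 and 2.90. It was 2.04-fold lower on day 8 (-1.03, technical SD 0.0645), within 1 technical SD of the limit, and its other probe was not well above background on any array. Dnajb9, the cofactor ERdj4 that restrains IRE1, was lower on each later day, at 3.31, 2.63 and 2.16, and was 2.22-fold lower on day 20 than on day 2 (-1.15, technical SD 0.0655). Its other probe gave larger differences, -1.40 on day 8 and -2.07 on day 20, each against day 2. With the default scaling both probes of Dnajb9 thus ordered the days alike, and a scaling shift moves both together. The brighter probe's day 20 difference from day 8 was 0.20 with spike-in scaling.

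The other 3 genes of this group stayed within 0.44 of their day 2 value. Dnajc3, the co-chaperone p58IPK that inhibits PERK, was at -1.17, -1.13 and -0.83. Sdf2l1, which binds BiP cofactors, was at -0.21, 0.22 and -0.12. Hyou1, the nucleotide exchange factor GRP170, was at -3.68, -3.74 and -3.45 on a dim probe with processed intensities of 51.6, 47.5 and 84.6, the dimmest among the members used.

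Calr and Canx, the lectins calreticulin and calnexin that hold newly made glycoproteins, were highest on day 2 with the default scaling. Calr was at 5.28, 4.82 and 4.83, 1.38-fold lower on day 8 (-0.46, technical SD 0.0592). Canx was at 4.24, 4.04 and 4.05, a difference of -0.20 (technical SD 0.0604). Between days 8 and 20 both differed by 0.01, less than their technical SD of 0.0667. With quantile, cyclic loess and spike-in scaling both were above day 2 on day 20, by up to 0.24 (Calr) and 0.50 (Canx).

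Disulfide isomerases, which form and rearrange the disulfide bonds of secreted proteins, had 0 of 5 members past 2-fold in either step and 4 of 5 above 0 on day 8. Pdia5 was at -0.03, 0.86 and 1.28, 1.85-fold higher on day 8 (0.89, technical SD 0.0697) and 2.48-fold higher on day 20 than on day 2. P4hb, the classical isomerase and a subunit of collagen prolyl hydroxylase, was at 4.76, 5.27 and 4.97. Pdia3 (ERp57), the isomerase that works with the lectins, went the other way, at 4.18, 3.56 and 3.51, or 1.53-fold lower on day 8 (-0.61, technical SD 0.0606).

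Pdia4, at 2.37, 2.55 and 2.38, and Pdia6, at 5.29, 5.40 and 5.46, had ranges of 0.18 and 0.17 over the 3 days. The other Pdia6 probe was also nearly level, at 0.37, 0.31 and 0.45. The isomerases thus ranged from Pdia5, second to Atf3 among the members in its difference over the whole course, to Pdia3, which was lower.

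Outside the ATF4 arm, Creld2 and Manf had the largest negative differences from day 2 to day 8. Creld2, a lumenal protein induced by ER stress, was at 4.26, 2.96 and 2.95, 2.45-fold lower on day 8 (-1.30, technical SD 0.0616). It is the only member printed 10 times on each array, and its spots ran from 4.21 to 4.31 on day 2, from 2.88 to 3.03 on day 8 and from 2.88 to 3.03 on day 20. The spots of day 2 did not overlap with those of the later days, and spots share 1 RNA sample.

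Manf, a small protein of the ER lumen that is secreted under stress, was at 3.51, 2.11 and 2.19. It was 2.63-fold lower on day 8 (-1.39, technical SD 0.0669) and 2.50-fold lower on day 20 than on day 2. Creld2 then differed by -0.01 and Manf by 0.07 from day 8 to day 20. Their day 8 calls stayed past 2-fold in all 10 alternative settings, as did those of Atf4, Chac1 and Ppp1r15a, whereas Sesn2, Dnajb11 and Edem2 did not. Not every setting could move the calls that stayed. The series table and the filters on dim probes keep the same signals, and pooling a gene's probes bears only on Atf4.

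ER-associated degradation, which draws misfolded proteins into the cytosol for the proteasome, had members with differences in both directions. Edem2, a mannose-trimming protein that marks glycoproteins for this route, was at -2.61, -1.58 and -1.66. It was 2.04-fold higher on day 8 (1.03, technical SD 0.0931), with a modest processed intensity of 109 on day 2, and the difference was 0.64 with normexp. Its relative Edem1 went the other way, at 2.29, 1.65 and 2.44, 1.56-fold lower on day 8 and 1.72-fold higher again on day 20 (0.78, technical SD 0.0715).

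Sel1l and Syvn1 encode the adaptor and the ubiquitin ligase (HRD1) of 1 complex. Sel1l was at 0.56, 0.41 and 1.09, 1.60-fold higher on day 20 than on day 8 (0.68, technical SD 0.0721), while Syvn1 was at 3.98, 4.35 and 4.11. Herpud1, which recruits that complex and holds both ERSE-II and CARE letters in its promoter, was at 2.15, 2.44 and 2.47. None of these 3 passed 2-fold in either step.

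**Figure D4:**
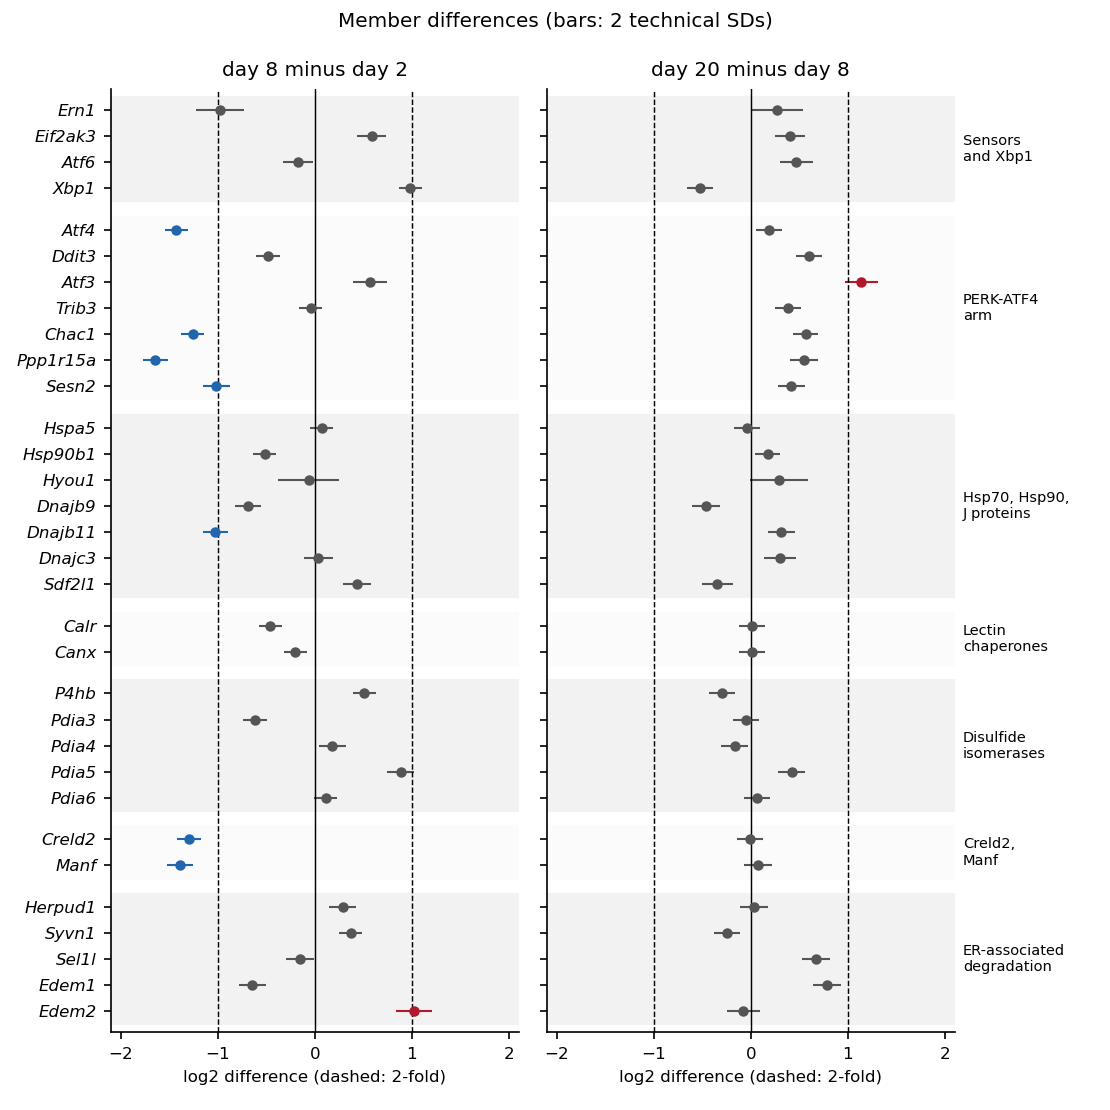
Points give each member's log2 difference, day 8 minus day 2 on the left and day 20 minus day 8 on the right, grouped by role, with bars of 2 technical SDs and dashed lines at 2-fold. On the left 7 points lie below -1 (blue) and 1 above 1 (red), and on the right Atf3 alone lies past a dashed line.

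Wider lists of the secretory pathway had smaller shares of genes past 2-fold on day 8 than the ATF4 targets, a difference that was not tested. Among all measured genes 13.8% were higher and 12.9% lower on day 8, and each of these wider lists lay below both shares. Other folding and disulfide enzymes had 3 of 31 (9.7%) higher and 2 (6.5%) lower on day 8, with a median of -0.19. Sil1, the exchange factor of BiP, was at 1.92, Calr3, a relative of calreticulin, at 1.61 and Ero1a, the oxidase that feeds the isomerases, at 1.15, against Fkbp10 at -1.42 and Ppic at -1.06, both prolyl isomerases. In the later step, Ero1b was the 1 gene of 31 (3.2%) past 2-fold, at 1.06, beside 3.58% higher among all genes. Other genes of ER-associated degradation had 1 of 22 (4.5%) higher, the lectin Os9 at 1.06, and 1 (4.5%) lower, the conjugating enzyme Ube2g2 at -1.67. From day 8 to day 20, 0 of 22 passed 2-fold.

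Genes of protein entry into the ER were below 0 in 25 of 25 cases on day 8 (translocon, signal peptidase and signal recognition), with a median of -0.52, where 53.6% of all genes were below 0. Of these, 3 passed 2-fold, Srp19 at -1.26, Sec11c at -1.11 and Ssr4 at -1.07. Glycosylation and COPII export genes had 2 of 22 lower, Ostc at -1.66 and Sec13 at -1.33, and 0 higher (median -0.49). Among other regulators of ER stress, Creb3l1, Creb3l4 and the pro-apoptotic Bbc3 were higher, at 1.87, 1.81 and 1.78, and Eif2s1, the subunit of eIF2 that PERK phosphorylates, and Atf6b were lower, at -1.33 and -1.07. In each of these last 3 lists 0 genes passed 2-fold from day 8 to day 20. As a control, 0 of 19 ribosomal protein genes passed 2-fold in either step, with medians of -0.20 and -0.65. They were not level, however: all 19 were below 0 from day 8 to day 20. Over the whole course, from day 2 to day 20, 5 of the 19 (26.3%) were at least 2-fold lower, with a median of -0.82, beside 17.0% of all genes.

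**Figure D5:**
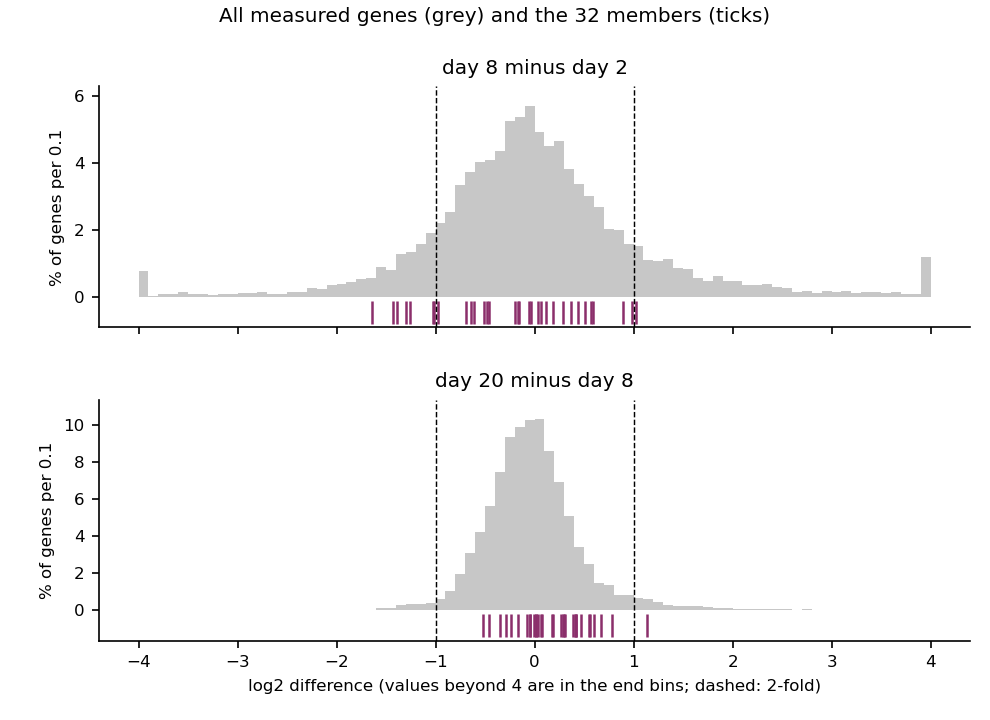
Grey bars give the percentage of all measured genes per 0.1 of log2 difference, day 8 minus day 2 on top and day 20 minus day 8 at the bottom, with ticks below for the 32 members and dashed lines at 2-fold. The member ticks run from -1.64 to 1.03 on top and from -0.52 to 1.14 at the bottom, inside the wider range of all genes.

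Over the whole course, from day 2 to day 20, 2 members were at least 2-fold higher, Atf3 and Pdia5, and 5 were lower, Manf, Creld2, Atf4, Dnajb9 and Ppp1r15a. Among 11888 measured genes 15.5% were higher and 17.0% lower. This split depended on the scaling: Atf3 and Pdia5 stayed at least 2-fold higher in all 10 settings, but 0 members were at least 2-fold lower with cyclic loess or spike-in scaling. Under spike-in scaling Manf and Creld2 were at -0.63 and -0.61, and the median of all genes was 0.54 in place of -0.14, a shift common to every gene.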

How the data were processed

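Total RNA from 3 samples, 1 per day, was hybridised to 1-colour (Cy3) Agilent arrays on 1 slide. The deposited intensity is a processed signal, per the file headers. The submitters' processing notes name Agilent Feature Extraction 10.7.1.1. The authors' deposited series table holds log2 values that equal the log2 processed signal minus an offset of 9.37, 9.31 and 9.86 on days 2, 8 and 20, within 0.01 for 100% of probes, so its direction and scale match and it is not centred per gene.

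Outlier spots were left out and spots of a probe averaged. Log2 processed intensity was scaled by subtracting the array's own 75th percentile, taken across the 39429 probes that are not controls. RefSeq accessions named 26581 probes and left 12848 unnamed. The brightest probe stood for a gene. A difference needed the software's mark of well above background on each of the arrays compared, and was called at 2-fold. With 1 array per day no test was made, and the number of arrays limits the precision. The technical SD comes from probes printed 10 times, in 8 signal bins, and covers spots only. Bounds use the lowest signal well above background.

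All 32 members are named. Of each companion list, up to 3 genes per direction with the largest called differences are named in each step. The members, the lists and the rules were chosen with earlier results of these data known. Of the genes on the companion lists, 3 had no probe here (Pycr1, Nucb2 and Cd68). Alternatives were normexp background correction (limma 3.58.1 in R 4.3.3, offset 50, on median signals, since mean signals were not among the columns used), quantile, cyclic loess, median and spike-in scaling (8 probes), the series table, filters on dim probes, and the mean or median of a gene's probes. Calculations ran in Python 3.11.15 and were tested on simulated data. Promoters are RefSeq's on GRCm38.p6, and array coordinates, on another build, were not used.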

Additional observations from a re-analysis of the deposited data

How the results depend on the processing

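No paired analysis was possible because each day has 1 array. From day 2 to day 8 the count of members at least 2-fold lower, 7 by default, lay between 5 and 8 over the 10 settings, and Atf4, Chac1, Ppp1r15a, Creld2 and Manf kept their call in all of them. The series table and the filters on dim probes could not move these calls, and the mean or median of probes could move only that of Atf4. The count of members at least 2-fold higher, 1 by default, was 0 with normexp, 3 with cyclic loess, 2 with spike-in scaling and 0 with median scaling, and the members' median was -0.021 with cyclic loess. Dnajb11 changed sign, to 0.24, with the median of all probes, which brings in its probe that was not well above background on any day. From day 8 to day 20 the count higher was 0 with normexp and 11 with spike-in scaling, and the median was 0.84 under spike-in scaling, 0.42 under cyclic loess and 0.39 under quantile normalization. From day 2 to day 20 the count higher was 9 under spike-in scaling and 5 under cyclic loess. The count lower was 0 under spike-in scaling, 0 under cyclic loess and 1 under quantile normalization. The median was 0.79 under spike-in scaling, 0.44 under cyclic loess, 0.24 under quantile normalization and 0.037 with median scaling. Under spike-in scaling the all-gene median between days 8 and 20 was 0.62 in place of -0.05, a shift that is the same for every gene, while the ribosomal protein genes had a median of 0.01 under it and -0.65 by default. The cause of the other changes was not tested. A change of sign in at least 1 setting occurred in 4 of 32 members from day 2 to day 8, in 16 from day 8 to day 20 and in 9 from day 2 to day 20. The dim probes of Hyou1, Ern1 and Edem2 had the widest technical SDs from day 2 to day 8, at 0.157, 0.123 and 0.0931.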
